A study of Mus musculus with 10 samples.

Results

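*Tcf7*, *Lef1*, *Gata3*, *Bcl11b*, *Tox* and *Tox2* are 6 transcription factor genes used to describe the entry of blood progenitors into the T lineage, and they were taken by symbol from 24062 gene rows. All 6 symbols were present, and 4 of the 6 (*Tcf7*, *Gata3*, *Bcl11b* and *Tox*) passed a filter on low counts (1 or more CPM, a read count scaled to the size of its library, in 2 or more libraries), as did 12221 genes in all. *Lef1* and *Tox2* did not pass it and are described by their counts.

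RNA was sequenced from C57BL/6J mouse marrow progenitors (Lin-SCA1+KIT+, or LSK, cells) that had been cultured and sorted. DN1 (KIT++CD44+CD25-), DN2a (KIT++CD44+CD25+) and DN2b (KIT+CD44lo CD25+) are successive CD4-CD8- stages of early T cell development, with 2 libraries each, from cultures on the Notch ligand Delta1 coated at 5 µg/mL. The no Notch control was LSK cells on human IgG at 5 µg/mL, harvested at day 14, with 4 libraries (D1, D2, R1 and R2; the sources used here do not explain the letters). All cultures held 4 growth factors (SCF, FLT-3 ligand, IL-6 and IL-11), and the DN2a and DN2b cultures also held IL-7 at 100 ng/mL, which the DN1 cultures did not. Stage and IL-7 therefore cannot be told apart between DN1 and DN2, and the control cells were not sorted into the DN gates. The study's methods place the addition of IL-7 to the Delta1 cultures at day 14. The harvest days of the DN libraries, and whether the control held IL-7, were not given in the sources used here. Culture time, and IL-7 in DN2 over the control, therefore cannot be told apart from stage either. Age was not given in the sources used here. The study's methods state that replicates came from independent LSK isolates.

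In the thymus, Notch signaling starts a regulatory cascade in incoming progenitors. TCF-1, the HMG box protein encoded by *Tcf7*, is an early target of Notch, and its relative LEF-1 (*Lef1*) binds the same DNA motif. GATA-3, a zinc finger protein (*Gata3*), is needed from the earliest T cell precursors onward. BCL11B, another zinc finger protein, is known for closing off other fates at commitment, which is placed between DN2a and DN2b. TOX and TOX2 are related HMG box proteins with known roles in later T cells and in innate lymphoid cells.

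The libraries held between 12354635 and 35367925 reads on genes. The detection floor was set at 3 counts, which came to between 0.0880 and 0.239 CPM by library. The floor covers counting error only, while SDs and SEs include the spread between libraries. *Ptprc* (CD45, the marker of blood cells) was present in every library at 205 to 426 CPM. Of the gate markers, *Il2ra* (CD25) had 21.1 CPM ± 2.99 (SD, n = 2) in DN1 and 1396 ± 320 (SD, n = 2) in DN2a, and *Cd44* lay at 116 and 159 CPM in DN1 and at 13.5 and 10.9 in DN2b. *Kit*, also a gate marker, did not follow its gates at the RNA level. Its DN2a libraries (173 and 212 CPM) overlapped those of DN2b (130 and 176 CPM). They lay below the DN1 libraries (368 and 319 CPM), which carry the same KIT++ gate as DN2a. The 10 myeloid markers summed to between 24575 and 62627 CPM in the control and to between 5.74 and 2116 CPM in the DN libraries. In bulk RNA, fewer cells of a type and less RNA per cell cannot be told apart.

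Some DN libraries stood apart from their partners. DN2b replicate 2 held 290 genes at 10 or more counts and over 3-fold above every other library, and DN1 replicate 1 held 234. The genes that set DN2b replicate 2 apart included genes of endothelium, connective tissue and heart muscle, for which marker lists were drawn up after the values were seen. The endothelial list (10 genes) summed to 121 CPM in DN2b replicate 2 and to 34.9 in DN1 replicate 2, against 1.13 in DN2b replicate 1 and 3.74 in DN1 replicate 1. *Cdh5*, which encodes VE-cadherin, had 170 and 94 counts in those replicate 2 libraries against 2 and 0 in the replicate 1 libraries. DN1 replicate 1 held more of the myeloid list (2116 against 138 CPM in replicate 2) and of the mast cell and basophil list (2102 against 532 CPM).

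*Tcf7* carried the most reads of the 6 genes in every library and had the largest share of its DN2b level already in DN1. In the control it had 0.392, 1.89, 0.469 and 1.40 CPM (D1, D2, R1 and R2), from 7 to 46 counts. DN1 held 238 and 250 CPM (replicates 1 and 2), DN2a 485 and 462, and DN2b 550 and 502. The lowest DN library stood 126-fold above the highest control library, and the control, DN1, DN2a and DN2b followed each other without overlap. The log2 fold change of DN1 over the control was 7.87 ± 0.55 (SE; adjusted p = 6.91e-05, edgeR; p-values are from its quasi-likelihood test and were adjusted by Benjamini-Hochberg across the whole table). *Tcf7* was the only member above the floor in all 4 control libraries.

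The later differences of *Tcf7* were smaller. On the log2 scale, DN2a over DN1 was 0.96 ± 0.55 (SE; adjusted p = 0.575, edgeR), DN2b over DN2a was 0.15 ± 0.54 (adjusted p = 1) and DN2b over DN1 was 1.11 ± 0.55 (adjusted p = 0.425). None of these passed the threshold. The DN1 mean was 46.4% of the DN2b mean.

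*Gata3* was at the edge of detection without Notch ligand. Its 4 control libraries held 2, 5, 7 and 6 counts, or 0.112, 0.231, 0.205 and 0.183 CPM. DN1 held 11.8 and 13.8 CPM, DN2a 32.0 and 30.3, and DN2b 30.7 and 55.9. Every DN library was above every control library, both DN2 stages were above DN1, and the lower DN2b library lay between the DN2a libraries. DN1 over the control was 6.06 ± 0.35 on the log2 scale (SE; adjusted p = 5.29e-05, edgeR).

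Within the DN stages *Gata3* was called higher in DN2b over DN1, by 1.76 ± 0.36 on the log2 scale (SE; adjusted p = 0.0426, edgeR). The call was lost when any 1 library of a DN stage was left out, and in the DN libraries with the replicate number as a block (adjusted p = 0.0676, edgeR) or without it (0.0693). Without DN2b replicate 2, the library with the endothelial, connective tissue and heart muscle transcripts, the log2 value was 1.26, the lowest over the settings tried. DN2a over DN1 was 1.28 ± 0.35 (adjusted p = 0.216) and DN2b over DN2a 0.48 ± 0.35 (adjusted p = 1). The latter was -0.018 without DN2b replicate 2.

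*Tox* was all but absent from the control and present in each DN library. The control libraries held 0, 0, 6 and 1 counts. DN1 held 4.93 and 5.48 CPM, DN2a 14.4 and 23.0, and DN2b 15.1 and 21.2. The control and the DN stages did not overlap, DN1 was below both DN2 stages, and DN2a and DN2b overlapped. DN1 over the control was 6.28 ± 0.77 on the log2 scale (SE; adjusted p = 0.000845, edgeR), a value that rests on 7 counts in the control and ranged from 5.15 to 9.66 over the settings tried. The later comparisons did not pass the threshold in edgeR, with DN2a over DN1 at 1.84 ± 0.77 (adjusted p = 0.424), DN2b over DN2a at -0.04 ± 0.74 (adjusted p = 1) and DN2b over DN1 at 1.80 ± 0.77 (adjusted p = 0.339). DESeq2 called *Tox* in the last of these (adjusted p = 0.0418).

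*Bcl11b* had the smallest share of its DN2b level in DN1 among the 4 tested members. The control libraries held 2, 5, 2 and 2 counts. DN1 held 61 and 26 counts (2.26 and 1.30 CPM), DN2a 13.5 and 10.5 CPM, and DN2b 25.9 and 19.4 CPM. As with *Tcf7*, the 4 groups followed each other without overlap. DN1 over the control was 3.97 ± 0.53 on the log2 scale (SE; adjusted p = 0.00112, edgeR).

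The DN1 mean of *Bcl11b* was 7.85% of the DN2b mean. DN2b over DN1 was 3.66 ± 0.60 on the log2 scale (SE; adjusted p = 0.0205, edgeR), a 12.7-fold difference. DN2a over DN1 was 2.75 ± 0.58 (adjusted p = 0.102) and DN2b over DN2a 0.91 ± 0.54 (adjusted p = 1). In a fit of the 6 DN libraries with the replicate number as a block, DN2a over DN1 was called for *Bcl11b* (2.77 ± 0.30, SE; adjusted p = 0.0473, edgeR), against an adjusted p of 0.0734 in the same libraries without the block. In the edgeR test of any difference among the 3 DN stages, *Bcl11b* was called (adjusted p = 0.0477) and *Gata3* (0.0957), *Tox* (0.543) and *Tcf7* (0.701) were not. The DESeq2 likelihood ratio test called *Bcl11b* (adjusted p = 1.22e-06) and *Gata3* (0.00856) in all 10 libraries, and not *Tox* (0.0826) or *Tcf7* (0.567). In the 6 DN libraries alone it called all 4, *Tcf7* included (6.09e-09), where edgeR gave *Tcf7* an adjusted p of 0.117. The edgeR calls of *Bcl11b* in DN2b over DN1 and among the DN stages were lost when any 1 library of DN1 or DN2b, or DN2a replicate 1, was left out, and the call among the DN stages also without DN2a replicate 2 or control D1, R1 or R2, while the log2 value of DN2b over DN1 stayed between 3.32 and 4.12 over all settings tried.

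*Lef1* and *Tox2* were near the floor in most libraries. *Lef1* held 3, 2, 2 and 0 counts in the control; DN1 had 0 and 11, DN2a had 6 and 5, and DN2b had 6 and 46. *Tox2* held 0, 1, 1 and 0 counts in the control; DN1 had 0 and 12, DN2a had 6 and 4, and DN2b had 1 and 42. In both genes the highest library was DN2b replicate 2 (3.66 and 3.34 CPM) and the next was DN1 replicate 2 (0.548 and 0.598 CPM).

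Those are the libraries that held the most endothelial and mesenchymal transcripts. The mesenchymal list (8 genes, led by *Col1a1* and *Col3a1*) summed to 91.8 CPM in DN2b replicate 2, 30.9 in DN1 replicate 2, between 4.23 and 7.44 in DN2a and below 1 CPM in DN1 replicate 1 and DN2b replicate 1. The cardiac muscle list (8 genes) summed to 114 CPM in DN2b replicate 2 and to at most 11.5 CPM elsewhere. The part of those transcripts in the *Lef1* and *Tox2* counts was not tested. *Tcf7l1*, a paralog of *Tcf7*, followed the same libraries with 47 counts in DN2b replicate 2, 19 in DN1 replicate 2 and 0 and 1 in their partners.

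Against the floor of the control, the DN2b mean of *Lef1* was at least 16.7-fold higher and that of *Tox2* at least 14-fold higher. Without DN2b replicate 2, *Lef1* was at least 3.30-fold higher on 6 counts, and *Tox2* was at the floor. Without the filter on low counts, both genes were called in DN2b over the control (adjusted p = 0.0303 and 0.0179, edgeR) and in no other comparison. With the 6 and 5 counts of *Lef1* in DN2a and the 6 and 4 of *Tox2*, every DN2a library was above every control library for both genes.

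**Figure D1:**
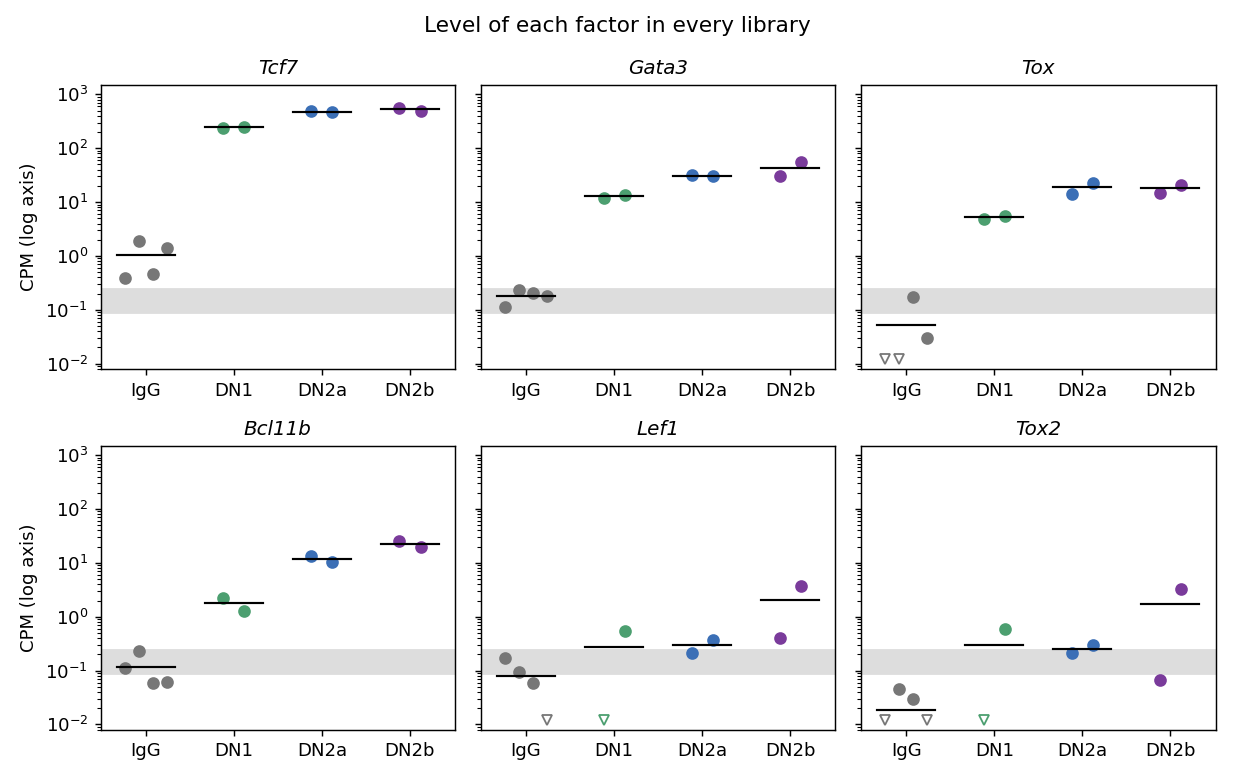
Level of each of the 6 factors in CPM (log axis) in every library of the no Notch control (IgG), DN1, DN2a and DN2b. Points are libraries, open triangles are libraries with 0 counts, black lines are group means, and the grey band is the range of the 3-count floor. *Tcf7*, *Gata3*, *Tox* and *Bcl11b* rise well above the band in DN1, while *Lef1* and *Tox2* stand clearly above it in DN2b replicate 2.

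Read against all genes, a gain over the control was common and a gain between DN stages was rare. All 4 tested members were called higher in DN1 over the control, where 14.3% of tested genes were called higher. All 4 were also called higher in DN2a and in DN2b over the control, where 21.2% and 19.9% of tested genes were. These 3 comparisons share the control libraries. *Gata3*, *Bcl11b* and *Tox* were below 1 CPM in every control library and passed the filter only through DN libraries. The counts over the control are therefore partly fixed by the filter. Without it, 4 of the 6 members were called in DN1 over the control, where 3511 of 18854 genes were called in either direction. None of the 4 was called in DN2a over DN1, where 0.196% of genes were called higher, and none in DN2b over DN2a, where 0% were. At an unadjusted p under 0.05, 3 of the 4 were higher in DN2a over DN1, against 3.38% of genes, and 0 in DN2b over DN2a, against 1.70%. DESeq2 called 1 and 0 higher, against 1.01% and 0.131% of genes. In DN2b over DN1, 2 of 4 were called (*Gata3* and *Bcl11b*), against 1.01% of genes, and among the DN stages 1 of 4 was called, against 1.12% (DESeq2 called 2 in all 10 libraries, against 6.1%, and 4 in the DN libraries alone, against 6.46%). In DN2b over DN2a, edgeR called no gene at all and DESeq2 called 29 (0.237%). There 335 genes (2.74%) had an unadjusted edgeR p under 0.05, below the share this threshold gives where no gene differs.

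Onset was also read without a model. In DN1, every library was above every control library for 4 of the 6 members, against 23.5% of tested genes. In DN2a and in DN2b this was so for all 6, against 30.6% and 28.2% of tested genes. For *Tox2* in DN2b this separation is between 1 count in DN2b replicate 1 and at most 1 count in a control library.

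By the first stage whose mean reached 50% of the highest stage mean, *Tcf7*, *Gata3*, *Tox* and *Bcl11b* all had their onset in DN2a, and *Lef1* and *Tox2* in DN2b. The shares behind that reading differed. The DN1 mean, as a percentage of the DN2b mean, was 46.4% for *Tcf7*, 29.5% for *Gata3*, 28.7% for *Tox* and 7.85% for *Bcl11b*. The DN2a mean was 90.0%, 71.8%, 103% and 53.1% of the DN2b mean in the same order. A threshold at 25% moved *Tcf7*, *Gata3* and *Tox* to DN1 and left *Bcl11b* in DN2a. With CPM by the plain gene-row total at 50%, *Tcf7* was placed in DN1. *Bcl11b* was placed in DN2b without DN2a replicate 1 or without DN2b replicate 2, and *Lef1* and *Tox2* were placed in DN1 without DN2b replicate 2.

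How these shares rank depends on the set of genes they are compared with. Over the 2435 genes called higher in DN2b over the control, the median DN1 mean was 78.1% of the DN2b mean, with quartiles at 57.1% and 93.4%. Over the 182 of them whose control mean was at most 1% of the DN2b mean, as for the 4 tested members but not *Lef1* and *Tox2*, the median was 16.9%, with quartiles at 3.03% and 39.4%. This set was chosen after the values were seen. Its limit uses the DN2b mean, which is also the denominator of the share, so the limit and the share are not independent. Among those 182 genes, 78.6% had a smaller DN1 share than *Tcf7*, 68.1% a smaller share than *Gata3*, 67.0% a smaller share than *Tox* and 36.3% a smaller share than *Bcl11b*. Over all 2435 genes the same percentages were 18.5%, 12.0%, 11.7% and 4.48%. On the log2 scale, 87.7% of the rise of *Tcf7* from the control to DN2b was present at DN1, against 77.5% for *Gata3*, 77.7% for *Tox* and 52.0% for *Bcl11b*, where the median over the 182 genes was 67.8%.

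**Figure D2:**
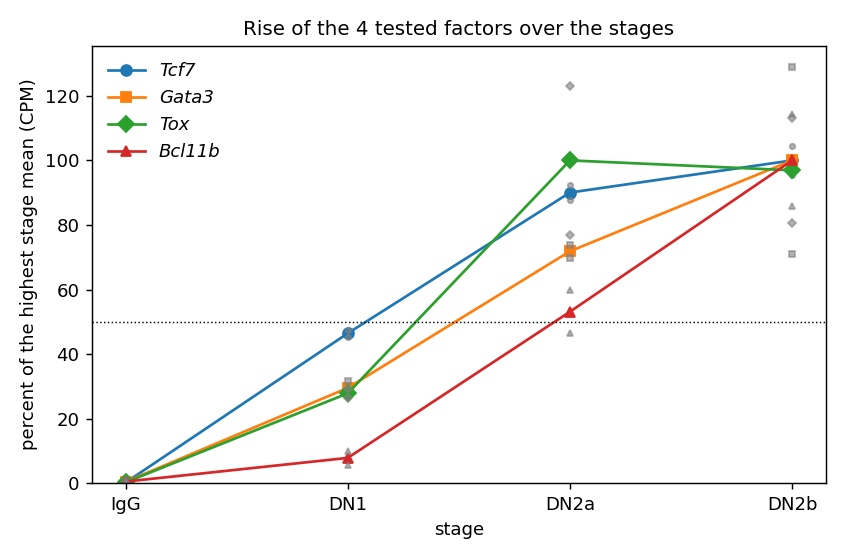
Stage means of *Tcf7*, *Gata3*, *Tox* and *Bcl11b* as a percentage of each gene's highest stage mean, with single libraries as small grey symbols of the same shape. The dotted line is 50%, and at DN1 the means lie at 46.4% for *Tcf7*, 29.5% for *Gata3*, 27.8% for *Tox* and 7.85% for *Bcl11b*.

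The ratio of a member to *Tcf7* within a library does not depend on how libraries were scaled. The log2 ratio of *Bcl11b* counts to *Tcf7* counts was -6.72 and -7.59 in DN1 and between -5.45 and -4.41 in the 4 DN2 libraries, a mean gain of 2.23. The mean gain of *Tox* against *Tcf7* was 0.76 and that of *Gata3* 0.46, and in neither did DN1 overlap with DN2. Without DN2b replicate 2 the *Gata3* gain was 0.25. Each of these 3 comparisons, added after the values were seen, had an exact two-sided permutation p of 0.133 (adjusted over the 3, also 0.133), which is the smallest that 2 against 4 libraries allow. They describe the order and cannot pass a threshold of 0.05.

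**Figure D3:**
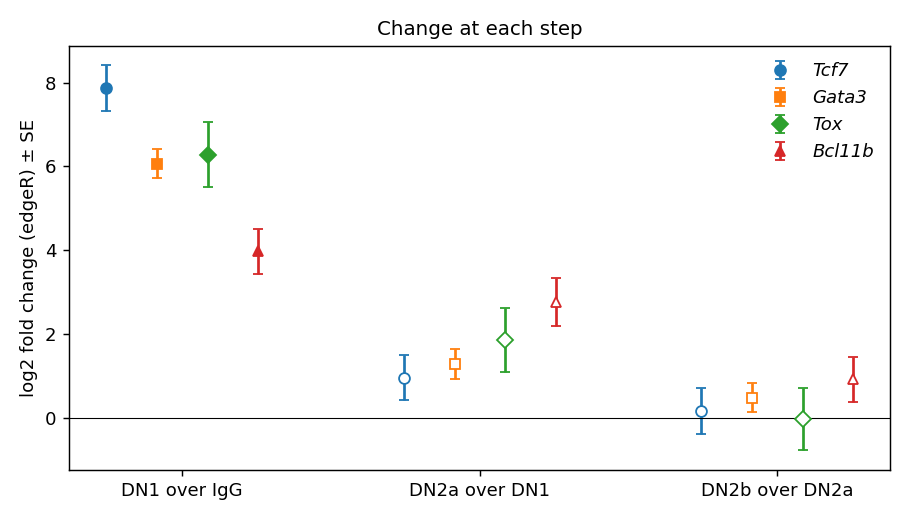
The log2 fold change of *Tcf7*, *Gata3*, *Tox* and *Bcl11b* at each successive step with its SE, from the edgeR fit of 10 libraries. Filled symbols passed an adjusted p of 0.05 and open symbols did not. All 4 passed in DN1 over the control, from 3.97 for *Bcl11b* to 7.87 for *Tcf7*, and none passed at the later single steps.

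Levels were compared between genes per kilobase of exon (GENCODE vM21, mm10). *Tcf7* (chromosome 11, 52252371 to 52283014, minus strand, 2625 exonic bases) stood highest at every stage, at 93.0 CPM per kb ± 3.22 (SD, n = 2) in DN1 and 200.3 ± 13.0 (n = 2) in DN2b. *Gata3* (chromosome 2, 9857078 to 9890034, minus strand, 3978 exonic bases) followed with 3.21 ± 0.34 in DN1 and 10.9 ± 4.47 in DN2b. In DN1, *Tox* (chromosome 4, 6686353 to 6991557, minus strand) was at 0.684 ± 0.0512 CPM per kb and *Bcl11b* (chromosome 12, 107910403 to 108003602, minus strand) at 0.219 ± 0.0842.

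In DN2b those neighbours in the order could not be separated. *Bcl11b* was at 2.79 ± 0.56 CPM per kb (SD, n = 2) and *Tox* at 2.38 ± 0.57, with overlapping libraries. *Tox2* (chromosome 2, 163203125 to 163324170, plus strand) and *Lef1* (chromosome 3, 131110471 to 131224356, plus strand) came last at 0.501 ± 0.681 and 0.231 ± 0.262 and also overlapped. An antisense gene, *Gm43352*, shares 1208 exonic bases with *Lef1*, and the strand setting of the counting was not given in the sources used here, so their reads cannot be told apart. Other annotated genes share 77 to 260 exonic bases with *Gata3* and *Tox*.

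The closest patterns among the members were those of *Lef1* and *Tox2*. Likeness was measured as the root mean square difference of log2(CPM + 0.5) over the 10 libraries, after each gene was centred on its own mean. It was 0.215 between *Lef1* and *Tox2* and 0.452 between *Gata3* and *Tox*. The 3 tested genes nearest to *Tox2* were *Galnt18* (0.192), *Dll4* (0.202), a Notch ligand gene of endothelium, and *Sorbs2* (0.217), and those nearest to *Lef1* were *Farp1* (0.309), *Me3* (0.323) and *Limch1* (0.325). Genes of few counts lie close to each other on this scale.

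The other members had neighbours with more reads. *Gata3* lay nearest to *Myl4* (0.447), a myosin light chain gene, then to *Tox* and to *Tmem121* (0.490). *Tox* lay nearest to *Kcnk5* (0.411), *Gata3* and *Slc35f2* (0.514). *Bcl11b* lay nearest to *Podxl* (0.424), *Arpp21* (0.450) and *Akr1c13* (0.471). *Tcf7* lay nearest to *A730098P11Rik* (0.50), *Cd160* (0.543), a receptor gene of lymphocytes, and *Gm6654* (0.712). *Gm6654* is annotated as a processed pseudogene, and its counts are uncertain where a near-identical copy exists.

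Of the paralogs of the members, *Bcl11a* was higher in both DN1 libraries than in any other, and *Gata1* and *Gata2* were high in a single DN1 library. Of 10 paralogs, 6 were tested, and 3 of them (*Bcl11a*, *Gata1* and *Gata2*) were called higher in DN1 over the control (14.3% of all tested genes were). None was called in DN2a or DN2b over the control, where 21.2% and 19.9% of genes were called higher. At an unadjusted p under 0.05 there were 2 and 0, against 53.9% and 52.2% of genes in either direction. DESeq2 called 1 and 0, against 51.2% and 48.4%. In DN2b over DN1, 1 was called lower, where 0.892% of genes were. DESeq2 called 3 lower in DN2b over DN1 and 3 in DN2a over DN1, against 3.94% and 2.81% of genes, where edgeR called 1 and 0. Without DN1 replicate 1, only *Bcl11a* was called in DN1 over the control and none in DN2b over DN1. Without DN1 replicate 2, which leaves 1 library in DN1, the spread came from the other groups. There the log2 value of DN2b over DN1 was -3.53 for *Bcl11a* and -5.66 for *Gata2*, and that of DN2a over DN1 was -5.88 for *Gata2*. The median log2 fold change of the 6 was 2.42 in DN1 over the control, where that of all tested genes was 0.01, and -1.65 in DN2b over DN1, where that of all genes was -0.02. Without DN1 replicate 1 these medians were 0.40 and -0.06.

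*Bcl11a*, the paralog of *Bcl11b* with known roles in progenitors and B cells, was higher in DN1 than in DN2b, opposite to *Bcl11b*. DN1 held 92.2 and 80.2 CPM, DN2a 16.1 and 22.9, and DN2b 6.60 and 9.31, against 5.21 to 13.5 in the control. DN1 was above every other group without overlap, and DN2b overlapped with the control. *Bcl11a* was 3.17 ± 0.40 higher on the log2 scale in DN1 over the control (SE; adjusted p = 0.000915, edgeR) and lower in DN2b over DN1, at -3.44 ± 0.53 (adjusted p = 0.0157). The second call was lost without DN1 replicate 1 (adjusted p = 0.0690) or either DN2b library (0.143 and 0.0861).

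*Gata1* and *Gata2*, which act in erythroid, mast cell and stem cell programs, were high in a single DN1 library. *Gata2* had 168 CPM in DN1 replicate 1 and 15.6 in replicate 2, and *Gata1* had 79.7 and 1.89. Their DN1 over control calls (adjusted p = 0.0213 and 0.0259, edgeR) were lost without DN1 replicate 1, where the log2 values became 0.72 ± 0.89 and 0.08 ± 1.34 (SE). That library also held more myeloid transcripts, more of the mast cell and basophil list (which includes *Gata2*) and more of the erythroid and megakaryocyte list (7 genes, *Gata1* among them), which summed to 547 CPM against 126 in replicate 2 and to between 229 and 950 CPM in the control. The sums of that list rested on different genes. *Itga2b* gave 331 CPM in DN1 replicate 1, and *Pf4* gave 219 to 947 CPM in the control. The globin genes *Hba-a1* and *Hbb-b1* had 0 counts in every library. *Klf1*, an erythroid factor of that list, had 51.5 CPM in DN1 replicate 1 and 0.598 in replicate 2. The part of such transcripts in the *Gata1* and *Gata2* values was not tested. *Gata3* showed no such split, with 11.8 and 13.8 CPM in the same libraries. *Tox4* lay at 107 CPM ± 13.4 (SD, n = 4) in the control and at 89.0 to 133 in the DN stage means, and neither edgeR nor DESeq2 called it in any comparison. *Tcf7l1* was likewise not called. *Tcf7l2* (group means of 2.0 to 7.39 CPM) was not called by edgeR with all libraries, where DN2a over the control was -1.90 ± 0.76 on the log2 scale (SE; adjusted p = 0.0665). DESeq2 called it lower there (adjusted p = 0.0202), and the edgeR value there was -1.89 without DN2b replicate 1 or without replicate 2. With 1 library left in DN2b, DN2b over the control was -0.21 without replicate 1 and -2.87 without replicate 2.

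**Figure D4:**
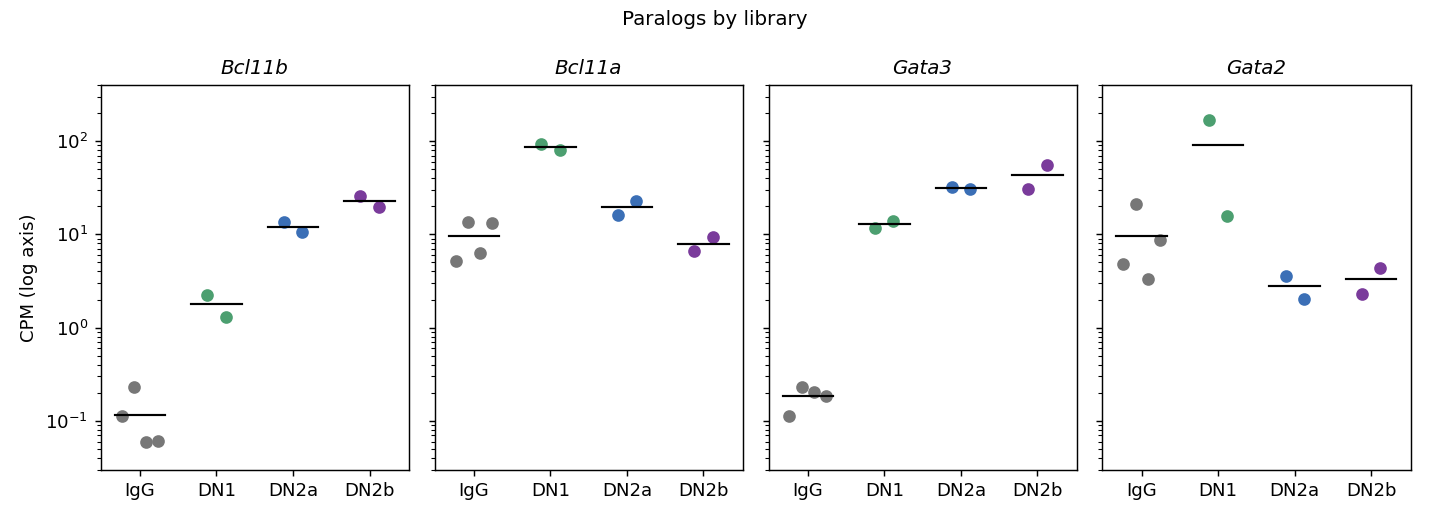
CPM (log axis) of *Bcl11b* and *Bcl11a*, and of *Gata3* and *Gata2*, in every library by group, with black lines for the group means. *Bcl11b* rises from 1.78 to 22.7 CPM between DN1 and DN2b while *Bcl11a* goes from 86.2 to 7.96 CPM, and *Gata2* differs between the 2 DN1 libraries.

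With all libraries, edgeR called cofactor genes of the members against the control and none between DN stages. Of 16 such genes (beta-catenin, the Groucho corepressors, the FOG proteins and subunits or partners of the NuRD complex), 14 were tested, and 6 were called higher and none lower in DN1 over the control, with a median log2 fold change of 0.72. Of all tested genes, 14.3% were called higher there and 17% lower. In DN2a over the control 8 were called higher and 2 lower, against 21.2% and 24.3% of genes, and in DN2b over it 6 and 2, against 19.9% and 22.5%. Without DN2b replicate 1 the DN2b counts were 2 and 0, and without DN2b replicate 2 they were 5 and 0. In DN1 over the control the largest called values were those of *Zfpm1* (FOG-1, a partner of GATA factors) at 3.98 ± 0.77 (SE; adjusted p = 0.00541, edgeR), *Hdac2* at 1.16 ± 0.19 and *Mta1* at 1.11 ± 0.24. The *Mta1* call was lost without DN1 replicate 1 (0.89 ± 0.30, SE; adjusted p = 0.0639, edgeR). The *Zfpm1* mean in DN1 had an SD larger than itself (80.6 CPM ± 97.8, n = 2), and its call was lost without DN1 replicate 1 (1.16 ± 0.53), while without DN1 replicate 2 the value was 4.88 ± 0.45. The count of cofactors called higher fell without either DN1 library. Between DN stages edgeR called 0. At an unadjusted p under 0.05, 1 was lower in DN2a over DN1 and 1 in DN2b over DN1, against 10.9% and 13.9% of genes in either direction. DESeq2 called 0 and 1 of the list lower, against 2.81% and 3.94% of genes. The DESeq2 call in DN2b over DN1 was *Zfpm1*. Without DN1 replicate 2, which leaves 1 library in DN1, its edgeR log2 value was -3.08 in DN2a over DN1 and -3.70 in DN2b over DN1.

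Among 20 other T-lineage transcription factors, 18 were tested, and 6 were called higher and 3 lower in DN1 over the control, where 14.3% of all tested genes were called higher and 17% lower. The counts were 4 and 1 without DN1 replicate 1 and 5 and 1 without DN1 replicate 2. *Hes1*, a direct Notch target, was 8.10 ± 0.51 higher on the log2 scale (SE; adjusted p = 5.42e-05, edgeR) and *Notch3*, a Notch receptor, 4.70 ± 0.88 higher (adjusted p = 0.00481). *Zbtb7b*, which encodes the CD4 lineage factor ThPOK, was lower by an edgeR log2 value of -3.97 ± 0.82 (adjusted p = 0.00740), from 100.4 CPM ± 25.1 (SD, n = 4) in the control to 6.36 ± 6.53 (n = 2) in DN1. The value was -5.84 ± 0.92 without DN1 replicate 1 and -3.19 ± 0.77 without DN1 replicate 2, and both passed the threshold. Without DN1 replicate 2, which leaves 1 library in DN1, the *Zbtb7b* log2 value in DN2b over DN1 was -3.94. Between DN1 and DN2b edgeR called only *Ets1* in this list, where 1.01% of all genes were called higher and 0.892% lower. DESeq2 called 2 of the list higher and 1 lower, against 2.77% and 3.94% of genes. *Ets1* went from 14.7 CPM ± 0.73 to 78.7 ± 14.8 (SD, n = 2 each), a log2 gain of 2.42 ± 0.45 (SE; adjusted p = 0.0338, edgeR). The *Ets1* call was lost without any 1 library of DN1 or DN2b, at log2 values of 2.21 to 2.60.

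Of the 4 lists, that of T cell genes had the most calls between stages. It was drawn up as genes downstream of the members, and their regulation by the members was not tested. Of 20, 19 were tested, and 17 were called higher and 1 lower in DN1 over the control, where 14.3% of all genes were called higher and 17% lower. The median log2 fold change of the 19 was 4.40, or 4.15 with 4 genes set at their bound, which had 3 counts or fewer in every control library. In DN2a over DN1, 5 were called higher, against 0.196% of all genes. The list includes *Il2ra*, the gene of the CD25 gate, whose difference between DN1 and DN2 is part of the sort. The count of 5 fell without DN1 replicate 1 or either DN2b library. The call that stayed without either DN2b library was that of *Il2ra*. In DN2b over DN1, 7 were called higher, *Il2ra* among them, against 1.01% of all genes, with a median of 3.04. That count fell without any 1 library of DN1 or DN2b. *Cd3g*, a chain of the T cell receptor complex, went from 0.123 CPM ± 0.0519 (SD, n = 4) in the control to 63.2 ± 46.3 (n = 2) in DN1. The DN2a mean was 630 CPM ± 161 and the DN2b mean 1621 ± 562 (SD, n = 2 each). Every control library held 0 to 2 counts of *Trat1*, a T cell receptor adaptor gene, and 0 of *Cd3e*, another CD3 chain, so their fitted values depend on the prior count. Set against the control floor of 0.121 CPM, the DN1 mean of *Trat1* (7.25 CPM) was at least 59.7-fold higher and that of *Cd3e* (1.63 CPM, 37 and 38 counts) at least 13.4-fold higher.

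The list's largest DN2b over DN1 values were those of *Cd3d*, *Il2ra* and *Cd247*. *Cd3d*, also a CD3 chain, was 6.798 ± 1.29 higher on the log2 scale (SE; adjusted p = 0.0340, edgeR; lost without DN1 replicate 1 or either DN2b library). Its value was 5.91 ± 1.32 without DN1 replicate 1 and 9.32 ± 1.59 without DN1 replicate 2. *Cd247*, the zeta chain, was 6.48 ± 0.70 higher (adjusted p = 0.00340). *Il2ra* is the gate marker CD25, so its difference is part of the sort. All 3 exceeded the 3.66 of *Bcl11b* over the same comparison, and the difference between these genes was not tested.

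**Figure D5:**
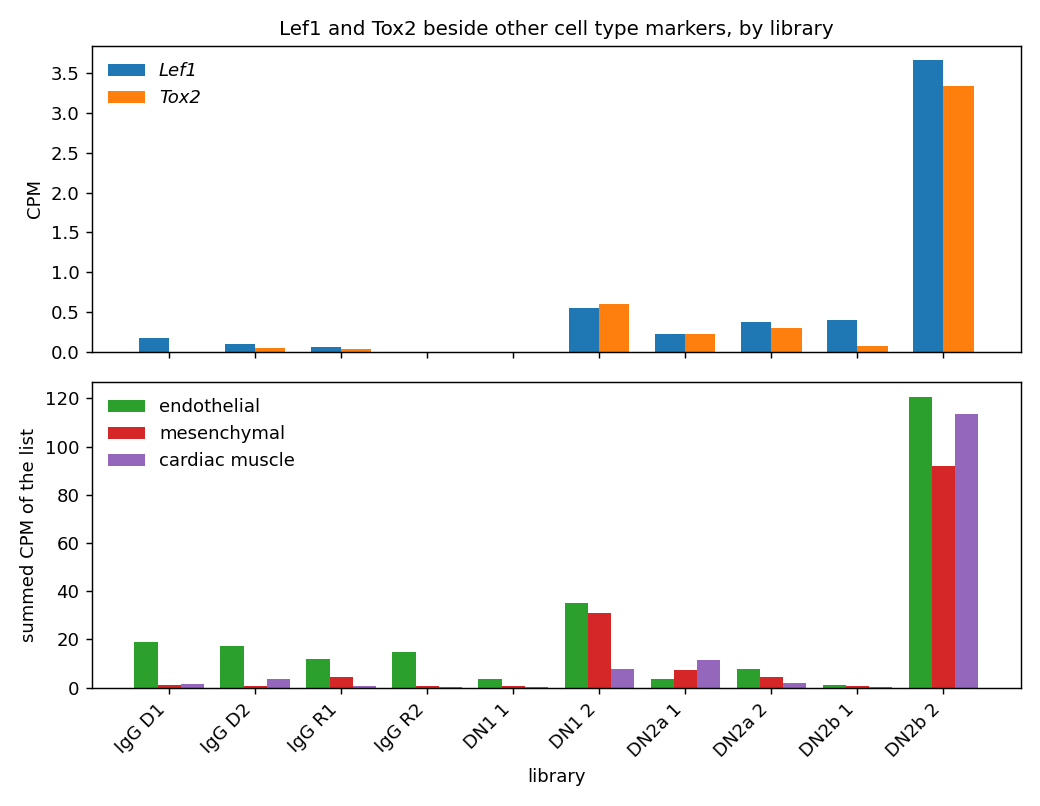
CPM of *Lef1* and *Tox2* (upper bars) and the summed CPM of the endothelial, mesenchymal and cardiac muscle marker lists (lower bars) in each of the 10 libraries. Both genes are highest in DN2b replicate 2 (3.66 and 3.34 CPM), where the 3 lists sum to 121, 91.8 and 114 CPM.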

How the data were processed

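The authors deposited raw counts per gene symbol for 10 libraries made with a stranded total RNA kit. Per the labels and the study's methods, reads were aligned to mm10 (TopHat2 2.12) and counted with HTSeq 0.6.1p1 in intersection-strict mode. The gene annotation and strand setting were not given in the sources used here. Reads aligned to several places, 16.4% to 30.1% per library, were left out by the counting, which makes near-identical genes uncertain.

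The 5 summary lines were dropped. CPM used TMM-scaled totals of the gene rows. Genes reaching 1 CPM in 2 or more libraries were fitted together in 4 groups with edgeR 4.0.16 (quasi-likelihood test, prior count 0.125, R 4.3.3), and p-values were adjusted over all 12221 genes by Benjamini-Hochberg. The SE of a log2 fold change is its size over the square root of F. Scripts were tested on simulated data. Alternatives were DESeq2 1.42.0, other scalings and filters, control subsets, a replicate block and each library left out. Leaving out DN1 replicate 2 and DN2b replicate 2 together, the ratios to *Tcf7*, list medians with floor bounds, a DESeq2 likelihood ratio test in all 10 libraries and 3 marker lists were added after seeing the data.

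The members and lists were chosen with earlier results of these data known. Named are the members, the 3 most similar genes of each, tested paralogs, and the 3 largest called changes per list in DN1 against the control and between DN1 and DN2b. *Tox4*, *Cdh5*, *Klf1*, *Itga2b*, *Pf4*, *Hba-a1*, *Hbb-b1*, *Col1a1* and *Col3a1* illustrate lists. B cell, NK and innate lymphoid, erythroid and megakaryocyte and later thymocyte markers were also summed, to 5.99 to 20.4, 162 to 430, 19.7 to 950 and 1.78 to 65.4 CPM over the libraries.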

Additional observations from a re-analysis of the deposited data

How the results depend on the processing

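The calls of the 4 tested members over the control held under every alternative run, and calls between DN stages did not. Of 480 values of single members under alternatives, 451 kept direction and side of the threshold, 22 lost the threshold, 3 gained it and 4 changed sign. In DN2b over DN1, 2 members were called. The count was 3 with DESeq2, which added *Tox* (adjusted p = 0.0418) and called 2.77% of all tested genes higher. It was 1 with library size scaling, with control D1 and D2 only, with control R1 and R2 only, and in the 6 DN libraries with or without a replicate block. It was 0 with only the groups compared and without both DN1 replicate 2 and DN2b replicate 2, and 0 to 2 with each library left out. Among the DN stages, 1 member was called. The count was 4 with DESeq2 in the 6 DN libraries, 2 with DESeq2 in all 10 libraries, 0 with library size scaling, 0 with control D1 and D2 only, 0 without both replicate 2 libraries, and 0 to 1 with each library left out. In DN2a over DN1, 0 were called, against 1 (*Bcl11b*) with DESeq2 and 1 with the replicate block. No member reached 50% of its highest mean by DN1. With a 25% threshold 3 did, with CPM by gene-row total 1 (*Tcf7*), and with each library left out 0 to 2, the 2 being *Lef1* and *Tox2* without DN2b replicate 2. By DN2a 4 members did, and 2 did at a 75% threshold. *Tox* in DN2b over DN2a ranged from -0.34 to 0.33 with a library left out (0.33 without DN2a replicate 2, 0.18 without DN2b replicate 1). *Gata3* in the same comparison ranged up to 0.84 and was -0.018 without DN2b replicate 2 and -0.019 without both replicate 2 libraries. In DN2b over DN1, the *Gata3* call was lost in 15 of 21 alternatives and the *Bcl11b* call in 7 of 21. The causes were not tested. The DN libraries were numbered by the year of the date in their labels, and DN2a and DN2b libraries of a number carry the same date. The study's methods say that the DN stages were taken from each LSK replicate, without naming libraries. Same-numbered libraries deviated together with a correlation across genes of 0.0717 for DN1 and DN2a, 0.222 for DN1 and DN2b and 0.397 for DN2a and DN2b, so whether the numbers pair all stages could not be settled, and the block is given as an alternative. It changed no other call of a member beyond those in the same libraries without it. Depth limits *Lef1* and *Tox2*, which had 12 counts or fewer in 9 of 10 libraries.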
